A study of Caenorhabditis elegans with 2 samples.

Results

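Long intergenic noncoding RNA genes of *Caenorhabditis elegans*, named *linc* and a number, were examined for binding by SNPC-4. All 170 genes with such a symbol in the RefSeq annotation of WBcel235, the assembly also called ce11, were taken, out of 46890 nuclear genes. A gene counted as having a peak or region where a summit lay within 500 bp of its 5′ end. The larvae were of strain OP179, with the *unc-119(ed3)* III allele and the *wgIs179* insertion that supplies SNPC-4 fused to eGFP. They were collected at the L3 stage as whole animals with males and females pooled, and their age is given as unknown. The labels give 2 biological replicates of this 1 group, so there is no second condition and no p-value is given. Binding is averaged over the tissues of the animal in 1 transgenic strain. The antibody label reads snpc-4 and the description names eGFP-tagged SNPC-4, so binding was taken here as that of the tagged protein. A contribution of untagged SNPC-4 was not examined. Sequencing depth is unknown, since regions come without read counts, and the values of the control alignment named in the file headers were not analysed here.

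SNPC-4 is a DNA-binding subunit of SNAPc, a complex that activates small nuclear RNA (snRNA) genes. In animals SNAPc recognises the proximal sequence element, a short promoter element just upstream of small nuclear RNA genes, and helps RNA polymerase II or III to start there. In *C. elegans* SNPC-4 also acts at piRNA gene clusters and at the spliced leader RNA genes. Long intergenic noncoding RNAs are transcripts without a long reading frame from DNA between protein-coding genes, and for most of those in *C. elegans* no function is known.

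The DNA under 4 of the peaks at *linc* genes is shown to let their sequences be compared: the strongest peak (*linc-78*), the peak with matches to the proximal sequence element (*linc-152*) and the peaks that hold the 8-base word AGACGCAG (*linc-27* and *linc-60*). Each is 121 bases of the ce11 genome sequence of RefSeq, centred on the summit and read 5′ to 3′ on the strand of the *linc* gene. The *linc-78* stretch is chrX:2242933-2243053 on the plus strand. The *linc-152* stretch is chrII:15256995-15257115 on the plus strand, with the match to the element that lies closest to the summit (score 18.0) in capitals. The *linc-27* stretch is chrII:6370308-6370428 on the minus strand, with the word in capitals. The *linc-60* stretch is chrIV:14959597-14959717 on the minus strand, with the reverse complement of the word in capitals. The *linc-78* stretch holds neither the word nor a match and has no capitals.
linc-78: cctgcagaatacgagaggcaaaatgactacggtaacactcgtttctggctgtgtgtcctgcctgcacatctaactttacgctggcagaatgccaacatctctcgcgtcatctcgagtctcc
linc-152: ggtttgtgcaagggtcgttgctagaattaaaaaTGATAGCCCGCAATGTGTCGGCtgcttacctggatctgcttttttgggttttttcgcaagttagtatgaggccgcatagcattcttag
linc-27: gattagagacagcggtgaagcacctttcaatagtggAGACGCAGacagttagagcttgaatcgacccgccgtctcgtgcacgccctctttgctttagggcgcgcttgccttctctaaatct
linc-60: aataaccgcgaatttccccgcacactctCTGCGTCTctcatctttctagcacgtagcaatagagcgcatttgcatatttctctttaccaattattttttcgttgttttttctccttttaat

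Of the 170 genes, 9 had a peak of the thresholded list: *linc-78*, *linc-153*, *linc-60*, *linc-91*, *linc-108*, *linc-27*, *linc-33*, *linc-44* and *linc-152*. This was 5.29% of *linc* genes (exact 95% interval 2.45% to 9.81%), against 6.15% of all nuclear genes, 8.94% of protein-coding genes and 7.77% of other noncoding RNA genes. The interval over *linc* genes holds all 3 background shares, so no difference was detectable with 170 genes. Of the 46890 nuclear genes, 19971 are protein-coding and 7886 are other noncoding RNA genes (annotated ncRNA, lncRNA or antisense RNA). The rest includes further classes, such as piRNA genes, transfer RNA genes and pseudogenes, so all nuclear genes are a mixed background. The order against all nuclear genes turned with the window: within 1000 bp 10% of *linc* genes had a peak, against 8.36% of all nuclear genes. A further 64 *linc* genes had a region of the pooled list that was weaker than the threshold, which gave 73 of 170 (42.9%) with a pooled region (interval 35.4% to 50.7%). The same share was 48.1% of all nuclear genes, 34.8% of protein-coding genes and 41.0% of other noncoding RNA genes, so *linc* genes stood below the first and above the other two, and the protein-coding share lay just outside the interval. Of the 97 genes with no pooled region, 26 had a region in a replicate list and 71 (41.8%, 34.3% to 49.6%) had none in any of these lists, against 35.7% of all nuclear genes, 47.5% of protein-coding genes and 41.0% of other noncoding RNA genes with none.

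The replicates gave similar counts. Replicate 1 had a region at 73 *linc* genes (42.9%, against 45.1% of all nuclear genes) and replicate 2 at 70 (41.2%, against 47.3%). The genes shared were 47, which is 64.4% of those of replicate 1 and 67.1% of those of replicate 2. Over all nuclear genes the shared genes were 68.1% and 64.9% of each list. The replicate lists hold peaks and background together, 30000 regions each, so a region in them is not by itself a peak.

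The 9 peaks ranked between 163 and 2531 in the thresholded list (rank 1 is the strongest of 2672). Their signal value, an arbitrary unit the authors deposited, had a median of 82.2, against 47.2 over the whole list. Their median rank was 475, against 1336 over the whole list. Of the 9, 5 were among the 500 strongest of the 2672 and 0 among the 100 strongest. Ranks of the peaks at other gene classes are not given here, so a high rank is not shown to be particular to *linc* genes. To leave out a replicate, the 2672 strongest regions of the other replicate's list stood in for the thresholded list. The median rank, then within that replicate's own list, was 973 without replicate 1 and 342 without replicate 2. All 9 summits lay upstream of the *linc* 5′ end, at 57 to 491 bp, with a median position of −264 bp. With 1 replicate left out the 9 genes called were partly others and this median was −137 bp (without replicate 1) or −134 bp (without replicate 2). Without replicate 2 the summits at *linc-141* and *linc-81*, called only then, lay 402 and 133 bp downstream, so not all were upstream. Without replicate 1 all were upstream. The summits at protein-coding genes had a median of −184 bp and 93.5% were upstream, and those at other noncoding RNA genes had a median of 73 bp and 33.0% were upstream. A summit 30 to 80 bp upstream was found at 1 of the 9 *linc* genes (*linc-44*), against 7.67% of protein-coding genes, 8.16% of other noncoding RNA genes and 89.8% of the 49 snRNA genes with a peak.

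**Figure D1:**
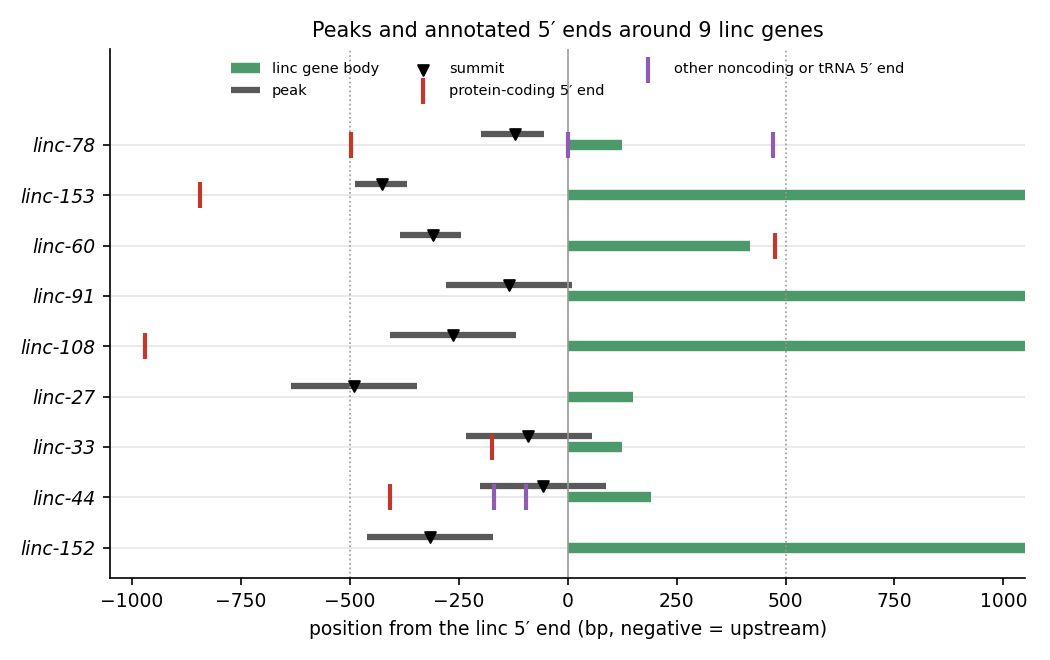
Summits of the thresholded list and 5′ ends of other genes around the 9 *linc* genes with a peak, as distance from the *linc* 5′ end in bp, strongest peak at the top. All 9 summits sit between −491 and −57 bp, and at *linc-153*, *linc-33* and *linc-44* another 5′ end is nearer to the summit.

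The strongest peak was at *linc-78* (AH9.8), a 125-bp gene at chrX:2243115-2243239 on the plus strand that overlaps the protein-coding gene *AH9.1*. The peak, chrX:2242916-2243061, had a signal of 149.6 (rank 163) and its summit 122 bp upstream. The nearest replicate region ranked 186 in replicate 1 (signal 76.6) and 173 in replicate 2 (signal 69.1), so it was strong in both. An annotated noncoding RNA gene, *AH9.7*, starts at the same base as *linc-78*, and *rpl-11.2*, which encodes a large-subunit ribosomal protein, starts 497 bp upstream on the opposite strand. The summit lay 375 bp from the *rpl-11.2* 5′ end, so it was nearer to *linc-78* and *AH9.7*.

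At *linc-153* (T27F2.8, chrV:11641024-11643916, minus strand) the peak (chrV:11644284-11644403, signal 99.6, rank 330) lay 426 bp upstream. Its regions ranked 313 in replicate 1 (signal 57.2) and 478 in replicate 2 (signal 40.4). The 5′ end of *bir-1*, which encodes the survivin homologue of the chromosomal passenger complex, lies 418 bp from that summit, slightly nearer than *linc-153* itself. Within 250 bp of the *linc-153* 5′ end 40.3% of the 36-base words occur once in the genome, the lowest share at any of the 9. That stretch does not reach the peak, so the share does not describe the sequence under it. At *linc-60* (Y41E3.462, chrIV:14958931-14959349, minus strand) the peak (chrIV:14959594-14959734, signal 99.5, rank 333) lay 308 bp upstream. Its regions ranked 236 in replicate 1 (signal 66.3) and 682 in replicate 2 (signal 34.5). The nearest other 5′ end was that of the protein-coding gene *Y41E3.1* on the same strand, 783 bp from the summit. These 2 peaks and that of *linc-78* were the 3 of the 9 narrower than the list's median width of 290 bp.

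At *linc-108* (F28F8.13, chrV:15565170-15566425, minus strand) the peak (chrV:15566544-15566833, signal 82.2, rank 475) lay 264 bp upstream. Its regions ranked 342 in replicate 1 (signal 54.5) and 688 in replicate 2 (signal 34.3). The nearest other 5′ end, 705 bp from the summit, belongs to *acs-2*, which encodes an acyl-CoA synthetase of fatty acid oxidation. At *linc-27* (K10B2.6, chrII:6369727-6369877, minus strand) the peak (chrII:6370223-6370512, signal 58.0, rank 933) lay 491 bp upstream, close to the limit of the window. Its regions ranked 628 in replicate 1 (signal 39.7) and 1075 in replicate 2 (signal 26.9), and the summit in replicate 1 fell outside the window, and the region inside the window ranked 9098. The nearest other 5′ end, 935 bp away, was that of *lin-23*, which encodes an F-box protein of a ubiquitin ligase. For both peaks the *linc* gene was the nearest annotated 5′ end.

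At *linc-33* (C35C5.21, chrX:11563625-11563749, minus strand) the peak (chrX:11563694-11563983, signal 48.8, rank 1270) lay 90 bp upstream, and its regions ranked 2255 in replicate 1 (signal 19.4) and 973 in replicate 2 (signal 28.6). This gene overlaps *lev-8*, an acetylcholine receptor subunit gene. The 5′ end of *trpp-9*, which encodes a subunit of the TRAPP trafficking complex, starts on the opposite strand 84 bp from the summit, so both genes fit the summit about equally by distance. At *linc-44* (F10C1.22, chrII:5781921-5782113, minus strand) the peak (chrII:5782025-5782314, signal 32.9, rank 2271) lay 57 bp upstream. Its regions ranked 5164 in replicate 1 (signal 11.6) and 1566 in replicate 2 (signal 21.4). Several genes share this place: the noncoding RNA gene *F10C1.16* starts 39 bp from the summit, a transfer RNA gene starts 112 bp from it and the protein-coding gene *K05F1.6* 350 bp from it.

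Rank 2531 of 2672 made *linc-152* (Y46E12BL.10, chrII:15257371-15259799, plus strand) the weakest of the 9 by signal (30.5). Its peak, chrII:15256910-15257199, lay 316 bp upstream and its regions ranked 3635 in replicate 1 (signal 14.2) and 3235 in replicate 2 (signal 12.8). Both ranks are past the 2672 regions that the thresholded list holds. It is the most isolated of the 9: the nearest other 5′ end, that of the noncoding RNA gene *Y46E12BL.8*, lay 1586 bp away and the nearest protein-coding one, that of *tig-3*, 5263 bp away. At the remaining peak, that of *linc-91* (W09C3.9, plus strand), the signal was 86.3 (rank 438) and the summit 134 bp upstream, with ranks of 332 in replicate 1 (signal 55.6) and 1188 in replicate 2 (signal 25.4). The nearest other gene, *chd-7*, which encodes a chromatin remodeller of the CHD family, began 901 bp from that summit.

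**Figure D2:**
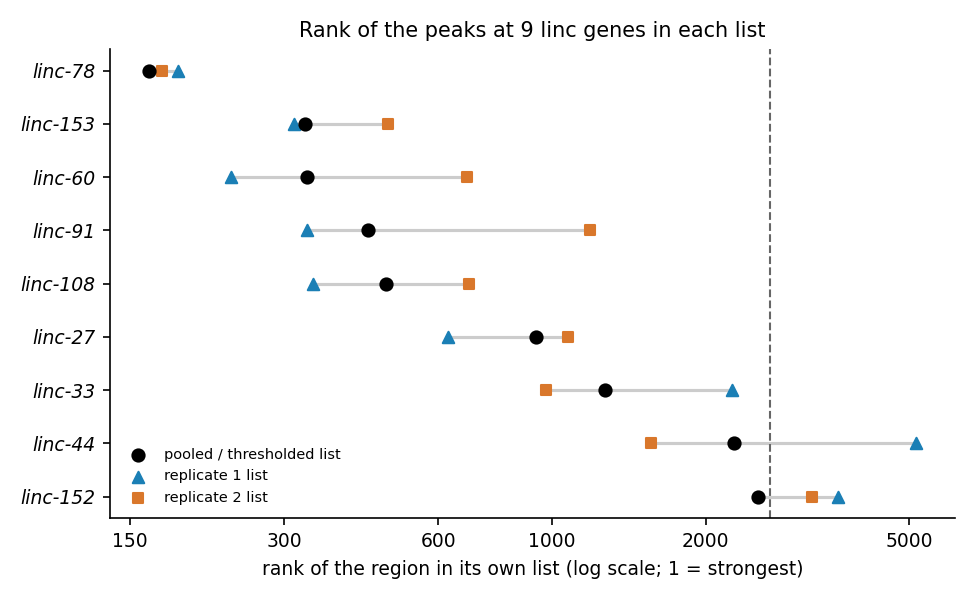
Rank of the peak at each of the 9 *linc* genes in the pooled (and thresholded) list and of the nearest region in each replicate list, on a log scale with 1 as the strongest. The dashed line is rank 2672, the size of the thresholded list, and both replicate ranks of *linc-152* and the replicate 1 rank of *linc-44* lie past it.

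The 5 genes with the strongest pooled region below rank 2672 were *linc-118*, *linc-54*, *linc-141*, *linc-105* and *linc-82*, with signals of 27.3, 27.1, 24.7, 24.0 and 22.7 and ranks of 2896, 2931, 3290, 3408 and 3645. For *linc-118* the ranks were 13634 in replicate 1 and 1796 in replicate 2, so it was far stronger in replicate 2, as was *linc-54* (25289 in replicate 1 and 2707 in replicate 2). For *linc-141* the order was the other way round, at 2051 in replicate 1 and 18974 in replicate 2. For *linc-105* they were close, at 4085 in replicate 1 and 4514 in replicate 2, and for *linc-82* 13681 in replicate 1 and 3239 in replicate 2. The 5 weakest of the 9 thresholded peaks had ranks between 475 and 2531. Over the 73 genes with a pooled region, 9 had the strongest one within rank 2672, 9 between rank 2673 and 5000, 17 between 5001 and 10000, 19 between 10001 and 20000 and 19 after that. Ranks of the 47 genes with a region in both replicates differed by a median of 1.97-fold, 24 by less than 2-fold and 0 by more than 10-fold.

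**Figure D3:**
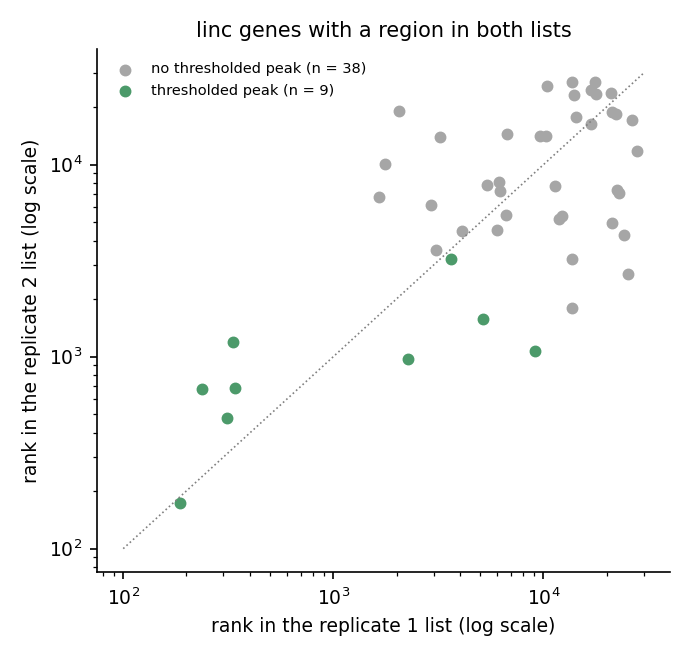
Rank of the strongest region within 500 bp of the 5′ end in replicate 2 against replicate 1 for the 47 *linc* genes with a region in both lists, on log axes. The ranks differ by a median of 1.97-fold, and the green point farthest from the dotted line of equal rank is *linc-27*, plotted by its replicate 1 region inside the window (rank 9098).

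A protein-coding 5′ end within 500 bp of the *linc* 5′ end marked 31 genes, and 139 had none. Of the 31, 4 had a thresholded peak (12.9%, interval 3.63% to 29.8%), against 15.6% of other noncoding RNA genes with such a neighbour. Of the 139, 5 did (3.60%, 1.18% to 8.20%), against 5.99% of other noncoding RNA genes with no such neighbour. Both intervals hold the share of the other noncoding RNA genes. The 4 were *linc-78*, *linc-60*, *linc-33* and *linc-44*, and *rpl-11.2*, *trpp-9* and *K05F1.6* lie on the opposite strand to them, upstream. At 19 of the 31 the neighbour was divergent, and 3 of these had a peak, against 1 of the other 12. This split has no background share here and rests on 4 peaks. Pooled regions were found at 15 of the 31 (48.4%) and 58 of the 139 (41.7%). Replicate 1 had a region at 11 of the 31 (35.5%, 19.2% to 54.6%) and at 62 of the 139 (44.6%). Replicate 2 had one at 21 of the 31 (67.7%, 48.6% to 83.3%) and at 49 of the 139 (35.3%). The higher share was thus among genes without such a neighbour in replicate 1 and among those with one in replicate 2. Other noncoding RNA genes kept 1 order, with 45.7% of those with such a neighbour and 38.8% of those without in replicate 1, and 48.0% and 41.8% in replicate 2.

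**Figure D4:**
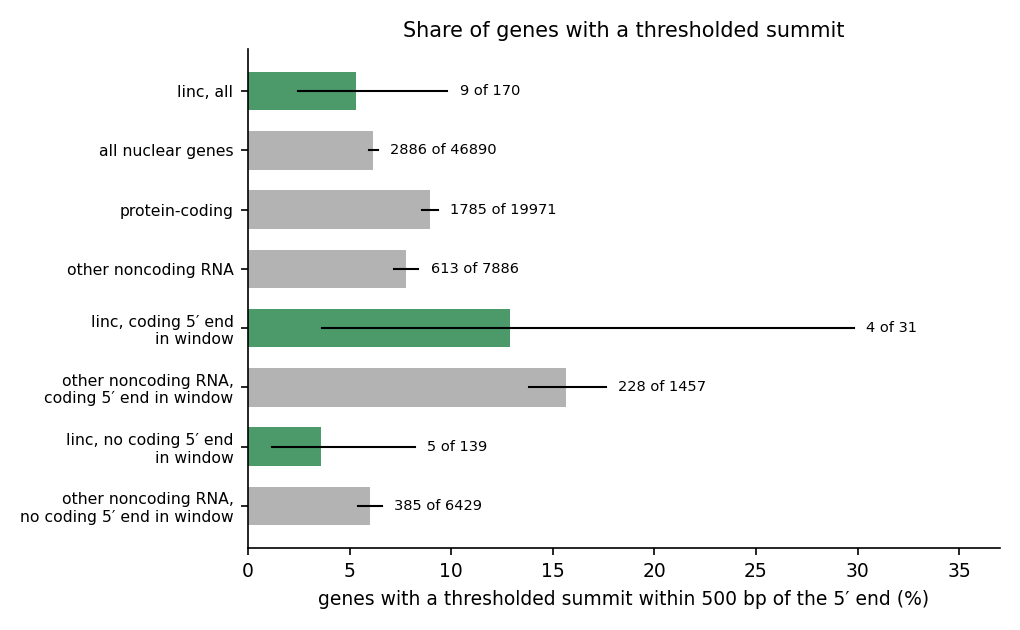
Share of genes with a summit of the thresholded list within 500 bp of the 5′ end, in percent, with exact 95% intervals, for *linc* genes and for other gene groups, all and split by a protein-coding 5′ end in the window. The *linc* intervals are wide, and each holds the value of the matching group of other noncoding RNA genes.

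Among the members, 169 are annotated as long noncoding RNA and *linc-171* as noncoding RNA. The 9 genes with a peak ran from 125 to 3257 bp, with a median of 419 bp against 755 bp for those without. Of the 9, 5 were under 500 bp, against 61 of all 170, and the other 4, *linc-108*, *linc-152*, *linc-153* and *linc-91*, had 1256 bp or more. By exon number 6 of the 54 single-exon genes had a peak, 2 of the 89 with 2 exons and 1 of the 27 with 3 or more, against 5.29% of all 170. Despite their name 34 of the 170 overlap a protein-coding gene, and 2 of these had a peak. The splits by length, exon number and overlap rest on few peaks. They were not set beside the same splits of other genes, so no trait of *linc* genes is read from them. A thresholded peak was at 3 of the 34 *linc* genes on chromosome II, against 8.89% of all genes there, at 2 of 33 on V (6.30%), 2 of 33 on X (5.93%), 1 of 22 on I (11.7%), 1 of 26 on IV (3.33%) and 0 of 22 on III (10.9%). Pooled regions were at a higher share of *linc* genes than of all genes on 5 of the 6 chromosomes. The shares were 51.5% of *linc* genes against 30.7% of all genes on V, 59.1% against 38.9% on III, 38.2% against 32.4% on II, 40.9% against 37.1% on I and 42.4% against 38.9% on X. Chromosome IV ran the other way, with 26.9% of *linc* genes against 66.1% of all genes, so the lower overall share of *linc* genes did not hold on the other 5 chromosomes. These are descriptions over 22 to 34 *linc* genes a chromosome. The nearest thresholded summit lay at a median of 14966 bp from a *linc* 5′ end, against 15910 bp over all nuclear genes.

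Sequence at the summits was compared with 3 short words that were the most frequent in an earlier look at all peaks, searched on both strands within 100 bp. AGACGCAG was found at 2 of the 9 (*linc-27* and *linc-60*), against 15.5% of the 2646 nuclear peaks of the list. GAGAGAGA was found at 1 (*linc-91*), against 12.1%, and CACACACA at 1 (also *linc-91*), against 8.13%. Any of the 3 was at 3 of 9 (33.3%), against 29.4% of nuclear peaks and 8.57% of the pooled regions under the threshold. With 9 peaks these shares rest on few genes. The median GC content was 45.8% at the 9 peaks and 43.8% at all nuclear peaks.

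A weight matrix of 22 bp was fitted to the region 100 to 20 bp upstream of the 49 snRNA genes with a peak and stands here for the proximal sequence element. A match was a score no lower than the 10th percentile of those training genes, 13.7. Within 100 bp of the summit 1 of the 9 *linc* peaks had a match (*linc-152*, score 21.1), against 262 of the 2646 nuclear peaks (9.90%). Of the 49 snRNA genes 43 had one, but these had trained it and are not independent. In the 200 bp upstream of the gene 1 of 170 *linc* genes had a match (0.588%), against 0.551% of protein-coding genes and 0.660% of other noncoding RNA genes. That gene was *linc-16*, which had no pooled region.

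Within 500 bp of its summit *linc-152* had 8 matches, 5 on its own strand and 3 on the other, with scores of 15.6 to 23.5, against a median score of 26.3 in the training genes. Of the 2646 nuclear peaks 345 (13.0%) had at least 1 match in that range, 97 at least 2 and 1 at least 8, which was this one, and the other 8 *linc* peaks had 0. With stricter limits, chosen after the data were seen, the 25th percentile of the training genes (22.4) left 1 match and their median left 0. The match left, with a score of 23.5, is centred 404 bp from the summit and 88 bp inside *linc-152*, outside the peak. The DNA there repeats: a 27-bp word has 2 copies in the genome, and both copies lie within 1000 bp of the summit. Read on the opposite strand the word begins with gtaaagtgtcggc, the bases in which 2 of the 3 matches on that strand end. The repeat and these 2 matches are thus not separate features. On the strand of *linc-152* the matches with scores of 15.6 and 18.0 differ at 1 base, so they are near copies as well.

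**Figure D5:**
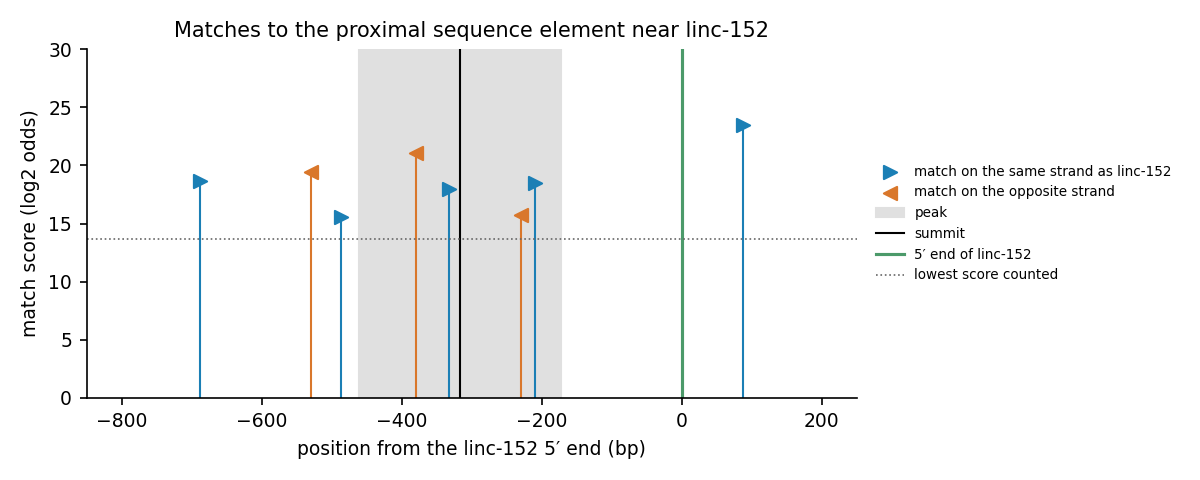
Matches to the proximal sequence element within 500 bp of the summit at *linc-152*, by distance from the 5′ end in bp and score (log2 odds). Arrows give the strand, the shaded band is the peak and the dotted line is the lowest score counted, 13.7, and the 8 matches spread over both strands.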

How the data were processed

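ChIP-seq in whole L3 larvae, taken as that of eGFP-tagged SNPC-4 (antibody label snpc-4), gave 2 replicates of 1 group. The labels put both samples in that group, as biological replicates 1 and 2. The thresholded list of 2672 peaks, made from both replicates by irreproducible discovery rate per the file headers, the pooled list and 1 list per replicate (30000 regions each), all on ce11, were used as deposited. Each region has a signal value, as the authors deposited it, used for ranks within a list and not across lists. The −log10 q-value the authors deposited was equal for the 9 peaks (3.88) and was not used for ranking. The sources used here give no aligner, peak caller or threshold.

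Summits were placed on RefSeq WBcel235 with python 3.11.15, pandas 2.3.3, numpy 2.4.6 and scipy 1.17.1, and figures drawn with matplotlib 3.10.9. Genes were counted with a summit within 500 bp of the 5′ end and shares given with exact (Clopper-Pearson) 95% intervals over genes, which cover counting error only. Neighbouring genes are not independent. The counting was checked on simulated summits. Every gene with a thresholded peak was named, with the 5 strongest below the threshold. The members, the words and the element were chosen with earlier results of these data known. Other windows, lists and transcript 5′ ends were tried as alternatives, with the effects given in the closing section.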

Additional observations from a re-analysis of the deposited data

How the results depend on the processing

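The share of *linc* genes with a thresholded peak was 2.35% with a window of 250 bp and 10% with 1000 bp, against 4.22% and 8.36% of all nuclear genes, so which of them was higher depended on the window. The share with a pooled region was 25.3% and 60% with these windows, against 32% and 62% of all nuclear genes. With 250 bp, 3 of 4 summits were nearer to the *linc* gene than to a protein-coding one, against 7 of 9 with 500 bp and 10 of 17 with 1000 bp. The summits were picked for lying near a *linc* 5′ end, which favours the *linc* gene in this count, and no background share was taken. The median summit position was −106 bp with 250 bp, −134 bp with 1000 bp, and −137 to −134 bp with a replicate left out. The median rank was 342 without replicate 2 and 973 without replicate 1, each within the list of the replicate kept. Leaving out a replicate kept the share of genes with a peak at 5.29%, but not the genes: 6 of the 9 remained without replicate 2 and 8 without replicate 1, with *linc-152* lost both times, and *linc-27* and *linc-44* also lost without replicate 2. Of 51 alternatives over 9 results 39 were labelled as unchanged and 12 as moved. Shares were judged by the interval of the main value and counts by a fixed fold limit. Position and rank were judged by the standard deviation of the 2 values with a replicate left out. Shares over 9 or 31 genes have wide intervals, so 39 of 51 is not a measure of stability. Unknown read depth and few peaks limit every share, and the control was not analysed here. No paired analysis was possible because there is 1 group.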

Other observations

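Besides the 5′ ends, 10 *linc* genes had a thresholded summit inside the gene, more than 500 bp from the 5′ end. The strongest was in *linc-154* (signal 315.6, rank 69), where the region ranked 76 in replicate 1 and 64 in replicate 2, and the summit lay 58 bp from the 5′ end of the microRNA gene *mir-8196.1*. In *linc-128* (signal 85.0, rank 447) the regions ranked 546 in replicate 1 and 256 in replicate 2, and the nearest other 5′ end, that of *cmd-1*, the calmodulin gene, was 4692 bp away. *linc-143* lies within *daf-2*, the insulin receptor gene, on the same strand, so its summit (signal 42.0, rank 1631) is also inside *daf-2*, 4582 bp from the *daf-2* 5′ end. The others were *linc-91*, *linc-90*, *linc-129*, *linc-159*, *linc-136*, *linc-146* and *linc-153*. The *linc-90* summit lay 275 bp from the 5′ end of the protein-coding gene *gei-4*, which *linc-90* overlaps. The *linc-153* summit lay 96 bp from the 5′ end of the noncoding RNA gene *T27F2.6*. For the rest of these the nearest other 5′ end was 1098 bp or more away. In *linc-91* the region ranked 1236 in replicate 1 and 26933 in replicate 2.

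These were 10 of 170 *linc* genes (5.88%), against 2.16% of protein-coding genes and 0.0634% of other noncoding RNA genes. Short genes cannot hold such a summit. Among genes of 1900 to 6100 bp, a range chosen after the values were seen, it was 10 of 39 *linc* genes (25.6%), against 2.13% of 8294 protein-coding genes and 1 of 29 other noncoding RNA genes (3.45%). The 10 genes run from 1988 to 6035 bp, so the range keeps all of them by construction. That choice favours the *linc* share, and 25.6% is not an even comparison with the other groups. Per megabase of gene body beyond 500 bp of the 5′ end *linc* genes had 73.4 summits, against 25.9 in nuclear sequence outside protein-coding genes and their 5′ end windows and 9.39 in protein-coding gene bodies. Outside protein-coding genes and their windows the *linc* value was 64.7, from 8 summits. Among the 2672 strongest regions of replicate 1, 10 *linc* genes had a summit in the body and 9 of them were among those named, with *linc-153* lost and *linc-147* gained. In replicate 2 there were 11, of which 9 were among those named, with *linc-136* lost and *linc-110* and *linc-133* gained. These counts are of genes and not of summits. In replicate 2 the regions nearest to the named summits of *linc-91* (rank 26933) and *linc-90* (rank 3612) fell past rank 2672. Both genes were kept there through another region. This was noticed after the values were seen, was not tested, and rests on 10 summits.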
